A study of Mus musculus with 11 samples.

Results

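The 9 genes described here belong to the interferon response and to antigen presentation by MHC class I. They are Irf1, Ifi35, Psmb8, Psmb9, Tap1, B2m, H2-K1, H2-D1 and Ifitm3. They were chosen by name, with earlier results of these data known. The gene lists used further below were chosen likewise. Shares of all genes given beside counts of either are therefore no independent test. The rule took every probe set whose platform annotation gives 1 of these symbols and no other. That rule found 27 of the 34945 probe sets with a single symbol, and the 9 genes stand among 18193 genes measured. Another 3 probe sets name H2-K1 or H2-D1 together with another gene and were not used.

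Total RNA from 5 kinds of mouse cells was measured on Affymetrix arrays, all from a mixed C57/Bl and BlackSwiss background. There were 3 arrays each of induced cells derived from the ventricular source (ViPSC), of induced cells derived from the tail tip source (TiPSC) and of embryonic stem cells that the labels call genetically matched (ESC). These cells grew with serum and LIF, a cytokine that keeps mouse stem cells undifferentiated, on irradiated embryonic fibroblasts, which were taken out by a short plating step before RNA extraction. The cardiomyocytes of the ventricle (VM) and the fibroblasts of the tail tip (TTF) that served as sources were taken at postnatal day 1, and each has a single array. The labels name no reprogramming factors and do not say how many clones or pups were used, nor whether replicate arrays stand for separate cultures. The p-values therefore measure only how far these samples spread, which may be technical.

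As background, cells that sense a virus release interferons. Type I interferons and interferon gamma bind their receptors, Janus kinases at the receptors become active, and transcription factors then enter the nucleus and bind short DNA elements. One is the interferon-stimulated response element, which interferon regulatory factors bind. Another is the gamma-activated site, through which interferon gamma acts. Induced products include the transcription factor Irf1, the immunoproteasome subunits, the peptide transporter and the MHC class I molecules that show peptides to CD8 T cells. Pluripotent cells of mouse are known for a weak interferon response and low surface MHC class I.

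Promoter stretches of 4 members with such an element upstream of the start are shown because interferons are known to act on such genes through elements of this kind. They come from RefSeq windows of build GRCm38.p6 that run from 250 bases before to 50 bases after a start site of the gene. Each is written 5′ to 3′ on the gene's own strand, with the matched letters in capitals. The motifs searched on both strands were GAAA, any 2 bases and GAAA again for the response element, AANNGAAA for the shorter site of interferon regulatory factors, which every match of the response element also contains, and TTCNNNGAA for the gamma-activated site.
Irf1, gamma-activated site 90 bases before the start, chr11:53769884-53769972, plus strand: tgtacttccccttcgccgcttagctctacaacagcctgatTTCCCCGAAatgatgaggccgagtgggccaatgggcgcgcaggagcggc
B2m, response element 139 bases before the start, chr2:122147508-122147597, plus strand: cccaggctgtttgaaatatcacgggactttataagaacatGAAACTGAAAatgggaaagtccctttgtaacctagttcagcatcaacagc
H2-K1, shorter site 90 bases before the start, chr17:34000390-34000477, minus strand: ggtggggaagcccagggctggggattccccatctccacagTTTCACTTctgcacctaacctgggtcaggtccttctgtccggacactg
H2-D1, shorter site 150 bases before the start, chr17:35262904-35262991, plus strand: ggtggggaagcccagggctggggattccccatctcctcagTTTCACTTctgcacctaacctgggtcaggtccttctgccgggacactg

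The H2-K1 and H2-D1 stretches were the same at 85 of 88 bases. Both carry the shorter site on the opposite strand. Psmb9 and Tap1 lie head to head, and 225 bases separate their starts, so the same stretch serves as upstream sequence of both. It is shown for that reason, on the plus strand, with Tap1 to the right and Psmb9 to the left, and it held none of the 3 motifs.
Psmb9 and Tap1, chr17:34187331-34187555, plus strand: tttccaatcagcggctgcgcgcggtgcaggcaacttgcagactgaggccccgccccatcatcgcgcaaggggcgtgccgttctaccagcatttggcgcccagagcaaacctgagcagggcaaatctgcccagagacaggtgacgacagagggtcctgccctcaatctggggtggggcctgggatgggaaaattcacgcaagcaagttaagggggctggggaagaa

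Psmb8 had a gamma-activated site 97 bases before its start, with the letters TTCCCAGAA. The matches of Ifi35 and Ifitm3 lay just after the start. Irf1 and H2-K1 have 2 windows each, of which the first is shown. The H2-K1 stretch lies before the start of its window but inside the RefSeq span of the gene, chr17:33996012-34000619. The second window of Irf1 held no match, and that of H2-K1 held the same site. Among all 32851 windows of this length, the response element was found in 3.44%, AANNGAAA in 23.9% and TTCNNNGAA in 8.3%. A match describes letters and does not show that a factor binds there.

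Pluripotency markers averaged 12.005 to 12.07 log2 units in ViPSC, 12.03 to 12.12 in TiPSC and 12.10 to 12.35 in ESC, against 4.29 in VM and 4.16 in TTF. Cardiomyocyte markers averaged 13.55 in the VM array, but endothelial markers averaged 10.29 there, against 4.34 in TTF, and 16 fibroblast markers averaged 9.67 in VM and 12.69 in TTF. The part of these other cells in the values of the VM array was not tested. Of the stem cell arrays, ESC 1 stood apart from its own group. Its correlation over all genes was 0.988 with ESC 2 and 0.984 with ESC 3, against 0.993 with each ViPSC array and 0.993 to 0.994 with the 3 TiPSC arrays.

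Irf1, the transcription factor that interferon gamma induces and that activates immunoproteasome and MHC class I genes, was highest among the stem cells in ViPSC. Its log2 values were 9.57, 9.60 and 9.75 in ViPSC, 8.10, 8.02 and 8.37 in TiPSC, and 8.86, 8.68 and 9.08 in ESC. The source cells had 10.05 in VM and 8.05 in TTF. The arrays of the 3 stem cell groups did not overlap, and the order of levels was VM, ViPSC, ESC, TiPSC and TTF, with TTF inside the TiPSC range. Irf1 rose in ViPSC by 1.48 ± 0.13 log2 units against TiPSC (SE, n = 3 each), which is 2.78-fold (limma adjusted p = 0.000879). It rose by 0.77 ± 0.13 against ESC, or 1.70-fold (adjusted p = 0.0243). TiPSC minus ESC was -0.71 ± 0.13 and missed the threshold (adjusted p = 0.0531), which it passed in 6 of 19 alternatives.

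**Figure D1:**
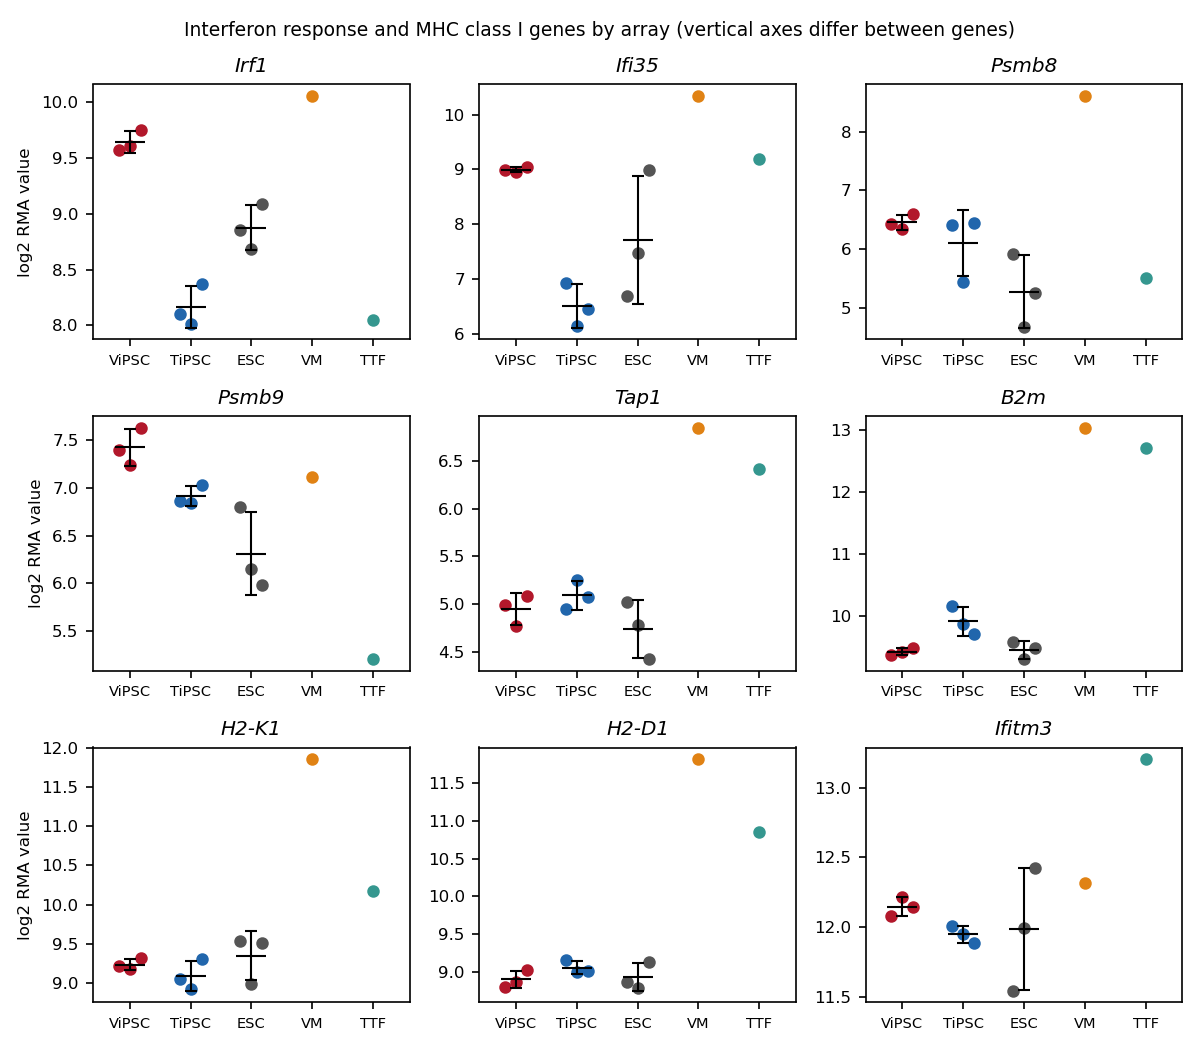
Log2 RMA value (vertical axes, which differ between genes) of the probe set used for each of the 9 genes, by group. Points are arrays, and the bar and whiskers give mean and SD of 3 arrays; VM and TTF have 1 array. Irf1 in ViPSC lies between 9.57 and 9.75, above all TiPSC and ESC arrays, while B2m in VM and TTF lies at 13.04 and 12.72, above every stem cell array.

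Ifi35, an interferon-induced leucine zipper protein that binds Nmi, showed the widest differences of the 9 genes between the stem cell groups. Its values were 8.998, 8.946 and 9.043 in ViPSC, 6.93, 6.14 and 6.46 in TiPSC, and 6.69, 7.48 and 8.99 in ESC. The VM and TTF arrays had 10.34 and 9.18. All ViPSC arrays lay above all TiPSC arrays, but ESC 3 reached the ViPSC level while ESC 1 lay within the TiPSC range. Ifi35 rose in ViPSC by 2.48 ± 0.47 against TiPSC, or 5.60-fold (limma adjusted p = 0.0199). Against ESC the difference was 1.28 ± 0.47 and did not pass (adjusted p = 0.205), and TiPSC minus ESC was -1.21 ± 0.47 (adjusted p = 0.226). The order of levels was VM, TTF, ViPSC, ESC and TiPSC.

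The other probe sets of Ifi35 had the same order among the stem cells. The second had 7.60, 7.70 and 7.72 in ViPSC, 5.91, 5.71 and 5.83 in TiPSC, and 5.95, 6.03 and 7.67 in ESC. It rose in ViPSC against TiPSC by 1.86 ± 0.37 (limma adjusted p over all probe sets = 0.0289), a call that was lost without any 1 ViPSC or TiPSC array (0.0668 to 0.114). The third differed by 1.23 ± 0.35 and did not pass (adjusted p = 0.0969). The third probe set and the one used for the gene are of types whose probes can match other genes. The second is specific by its type. ESC 3 was the highest ESC array on each of the 3 probe sets. In the fit over all probe sets, 3 of the 27 member probe sets passed for ViPSC against TiPSC, of Irf1 and Ifi35, where 3.91% of all probe sets passed. For ViPSC against ESC, 2 passed, of Irf1 and Psmb9, where 1.22% of all did, and for TiPSC against ESC 0 passed, where 0.213% of all did.

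Against TiPSC, 2 of the 9 genes passed in ViPSC, both higher, where 5.63% of all 18193 genes passed and 3.2% passed as higher. The arrays of ViPSC and TiPSC did not overlap for 5 of the 9 genes, against 33.5% of all genes. The call of Ifi35 was lost without TiPSC 1, TiPSC 2, ViPSC 1, ViPSC 2 or ViPSC 3, with adjusted p of 0.0580, 0.0688, 0.0835, 0.0811 and 0.0825. Its difference stayed at 2.30 to 2.69. Those fits called 255, 512, 241, 207 and 207 of all 18193 genes, against 1024 with every array. Irf1 passed in all 19 alternatives tried. Without ESC 1, whose spread enters the shared error, Psmb9 passed at 0.51 (adjusted p = 0.0252) and B2m at -0.48 (adjusted p = 0.0339), in a fit that called 1994 of all 18193 genes.

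**Figure D2:**
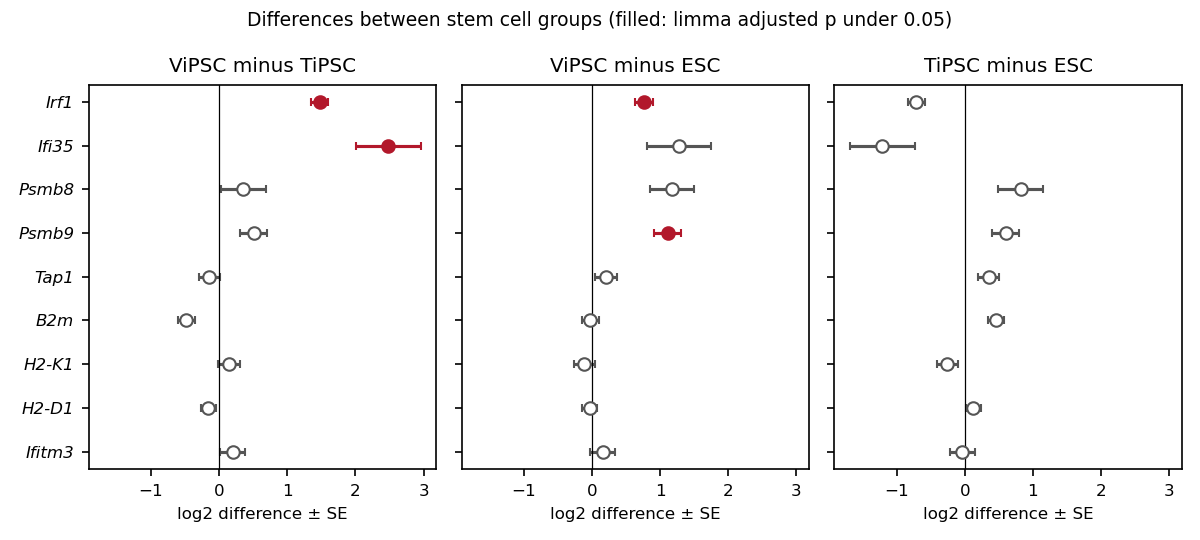
Differences of group means in log2 units with their SE (horizontal axes) for the 9 genes in the 3 comparisons of stem cells. Filled points passed limma's test at an adjusted p under 0.05, namely Irf1 at 1.48 and Ifi35 at 2.48 for ViPSC minus TiPSC, and Irf1 at 0.77 and Psmb9 at 1.11 for ViPSC minus ESC.

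Irf1 and Ifi35 both lie on chromosome 11, and that chromosome as a whole stood higher in ViPSC. The median difference of its 644 expressed genes, those with a mean of at least 7, was 0.44 for ViPSC minus TiPSC and 0.37 for ViPSC minus ESC. The same medians over all 7465 expressed genes were -0.03 and 0.03. On chromosome 11, 31.4% of expressed genes passed as higher against TiPSC and 14.8% against ESC. After each array's chromosome median was subtracted, Irf1 was still higher in ViPSC than in TiPSC by 1.004 (limma adjusted p = 0.0037) and Ifi35 by 2.01 (adjusted p = 0.0205). The Irf1 difference from ESC became 0.40 and no longer passed (adjusted p = 0.121).

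Of the 10 measured genes nearest to Irf1, 3 passed as higher in ViPSC than in TiPSC. These were Kif3a at 1.15, Slc22a5 at 0.62 and P4ha2 at 0.61. The 10 genes nearest to Ifi35 held 4 that passed, namely Tmem106a at 1.51, Brca1 at 0.75, Aarsd1 at 0.64 and Ptges3l at 0.39. Beside both counts, 31.4% of expressed genes on chromosome 11 and 3.2% of all genes passed as higher. The neighbours had median differences of 0.31 around Irf1 and 0.41 around Ifi35. These medians take all 10 neighbours at any level, among them Il5 with a stem cell mean of 3.55 and G6pc with 3.27. The chromosome median takes expressed genes alone, so these values are not like for like. Irf1 and Ifi35 each stood above all 10 of their own neighbours. Against ESC, Tmem106a passed too, at 1.39. Around the members on other chromosomes, Patl2 near B2m rose by 0.88 in ViPSC against TiPSC. H2-Eb1 near Psmb8 rose in ViPSC by 0.55 against TiPSC and by 1.05 against ESC. Psmb9, itself a member and a neighbour of Psmb8 and Tap1, rose in ViPSC by 1.11 against ESC. Vps52 near H2-K1 fell by 0.72 in ViPSC and by 0.77 in TiPSC against ESC, and Tcf19 near H2-D1 rose by 0.84 in TiPSC against ESC.

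**Figure D3:**
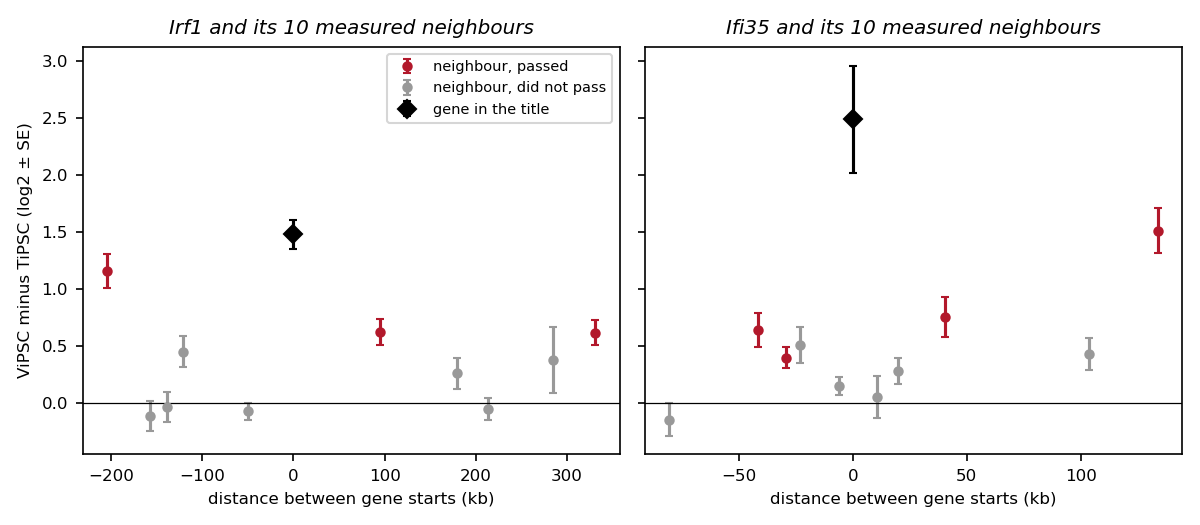
Difference of ViPSC minus TiPSC in log2 units with SE (vertical axis) against the distance between gene starts in kb (horizontal axis) for Irf1, Ifi35 and the 5 measured genes on each side of them. The diamonds, Irf1 at 1.48 and Ifi35 at 2.48, lie above all their neighbours, of which Kif3a at 1.15 and Tmem106a at 1.51 are the highest.

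Psmb8 and Psmb9 are catalytic subunits of the immunoproteasome, which replace constitutive subunits and favour peptides that fit MHC class I. Psmb9 had 7.40, 7.24 and 7.63 in ViPSC, 6.86, 6.85 and 7.03 in TiPSC, and 6.80, 6.15 and 5.98 in ESC. VM had 7.11 and TTF 5.20. Every ViPSC array was above every TiPSC and ESC array and above VM, and the order was ViPSC, VM, TiPSC, ESC and TTF. Psmb9 rose in ViPSC against ESC by 1.11 ± 0.20, or 2.16-fold (limma adjusted p = 0.0287). Against TiPSC the difference was 0.51 ± 0.20 (adjusted p = 0.175), and TiPSC minus ESC was 0.60 ± 0.20 (adjusted p = 0.171), neither of which passed.

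Psmb8 had 6.42, 6.34 and 6.60 in ViPSC, 6.41, 5.45 and 6.44 in TiPSC, and 5.91, 4.67 and 5.25 in ESC. VM had 8.61 and TTF 5.51. All ViPSC arrays lay above all ESC arrays, while 2 TiPSC arrays lay within the ViPSC range. The difference of ViPSC from ESC, 1.18 ± 0.33, did not pass (limma adjusted p = 0.107). Over the 9 stem cell arrays, Psmb8 and Psmb9 correlated at r = 0.866 and Irf1 and Ifi35 at 0.901, the highest values among pairs of members. Between these pairs, Irf1 was at 0.315 with Psmb8 and 0.424 with Psmb9, and Ifi35 at 0.182 and 0.203. These correlations describe 9 arrays in 3 groups that share a normalization. The part of the chromosome 11 shift in the value of Irf1 and Ifi35 was not tested.

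Against ESC, 2 of the 9 genes passed in ViPSC, Irf1 and Psmb9, where 2.14% of all genes passed. The Irf1 call was lost without ESC 2, TiPSC 1 or any ViPSC array (adjusted p 0.0531 to 0.134). The Psmb9 call was lost without ESC 2, TiPSC 1, TiPSC 2 or any ViPSC array (adjusted p 0.0525 to 0.144). The fits that lost either call called 22 to 217 of all 18193 genes. Without ESC 3, Ifi35 passed at 1.91 (adjusted p = 0.0127), and without ESC 1, Psmb8 passed at 1.49 (adjusted p = 0.0106). These fits called 607 and 2519 of all 18193 genes, against 390 with every array.

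Tap1 is a subunit of the transporter that carries peptides into the endoplasmic reticulum. It had 4.99, 4.76 and 5.09 in ViPSC, 4.95, 5.25 and 5.07 in TiPSC, and 5.02, 4.78 and 4.42 in ESC. VM had 6.86 and TTF 6.42. The stem cell groups overlapped throughout and lay near the arrays' medians over all probe sets, which were 4.67 to 4.78. Its differences among the stem cell groups were -0.14 to 0.35, and none passed. The other 3 Tap1 probe sets stayed below 5 in all 11 arrays, the source cells included.

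B2m encodes beta-2 microglobulin, the light chain without which MHC class I does not reach the surface. It had 9.37, 9.43 and 9.49 in ViPSC, 10.16, 9.87 and 9.72 in TiPSC, and 9.58, 9.31 and 9.49 in ESC. VM had 13.04 and TTF 12.72. Here TiPSC was the highest of the stem cells, above all ViPSC and ESC arrays, and the source cells lay far above all 3 groups. ViPSC minus TiPSC was -0.48 ± 0.12 (limma adjusted p = 0.0539) and TiPSC minus ESC was 0.46 ± 0.12 (adjusted p = 0.123), neither past the threshold. The second B2m probe set gave -0.49 for ViPSC minus TiPSC (adjusted p over all probe sets = 0.0515).

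The B2m difference from TiPSC stood close to the threshold and passed in 10 of 19 alternatives, with adjusted p of 0.00341 to 0.186. TiPSC 1, the highest stem cell array for B2m, also had the highest fibroblast and feeder markers of the stem cell arrays. Their mean over 16 genes was 7.23 to 7.36 in ViPSC, 7.30 to 7.96 in TiPSC and 7.05 to 7.38 in ESC. The median difference of the 16 was -0.32 for ViPSC minus TiPSC, 0.09 for ViPSC minus ESC and 0.42 for TiPSC minus ESC. Of these markers, 0 of the 16 passed limma's test in any of the 3 comparisons. Their part in the B2m values was not tested.

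H2-K1 and H2-D1 encode the classical MHC class I heavy chains. H2-K1 had 9.21, 9.17 and 9.31 in ViPSC, 9.04, 8.92 and 9.30 in TiPSC, and 9.54, 8.98 and 9.51 in ESC. VM had 11.86 and TTF 10.17. H2-D1 had 8.80, 8.86 and 9.03 in ViPSC, 9.16, 8.999 and 9.01 in TiPSC, and 8.87, 8.79 and 9.14 in ESC, with 11.82 in VM and 10.85 in TTF. The stem cell groups overlapped for both genes, and both source arrays lay above all stem cell arrays. None of the 6 differences passed, and they ran from -0.25 to 0.14.

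The heavy chains belong to a family of related genes, and how far their probe sets read each other was not tested. All 4 probe sets of H2-K1 and 7 of the 9 of H2-D1 are of types whose probes can match other genes. A second H2-D1 probe set had 11.81 in VM and 10.77 in TTF, against 8.58 to 9.12 in the 9 stem cell arrays. An H2-D1 probe set specific by its type had 7.71 in VM and 6.20 in TTF, against 5.02 to 5.36 in stem cells. The other probe set specific by its type had 3.78 in VM and 3.44 in TTF, against 3.30 to 3.92 in stem cells, so it showed no higher level in the source cells. Of the 27 probe sets, 9 stayed below 5 in all arrays, 4 of them of H2-D1, 3 of Tap1, 1 of Psmb8 and 1 of H2-K1. Which alleles of this mixed background the probes match was not tested.

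**Figure D4:**
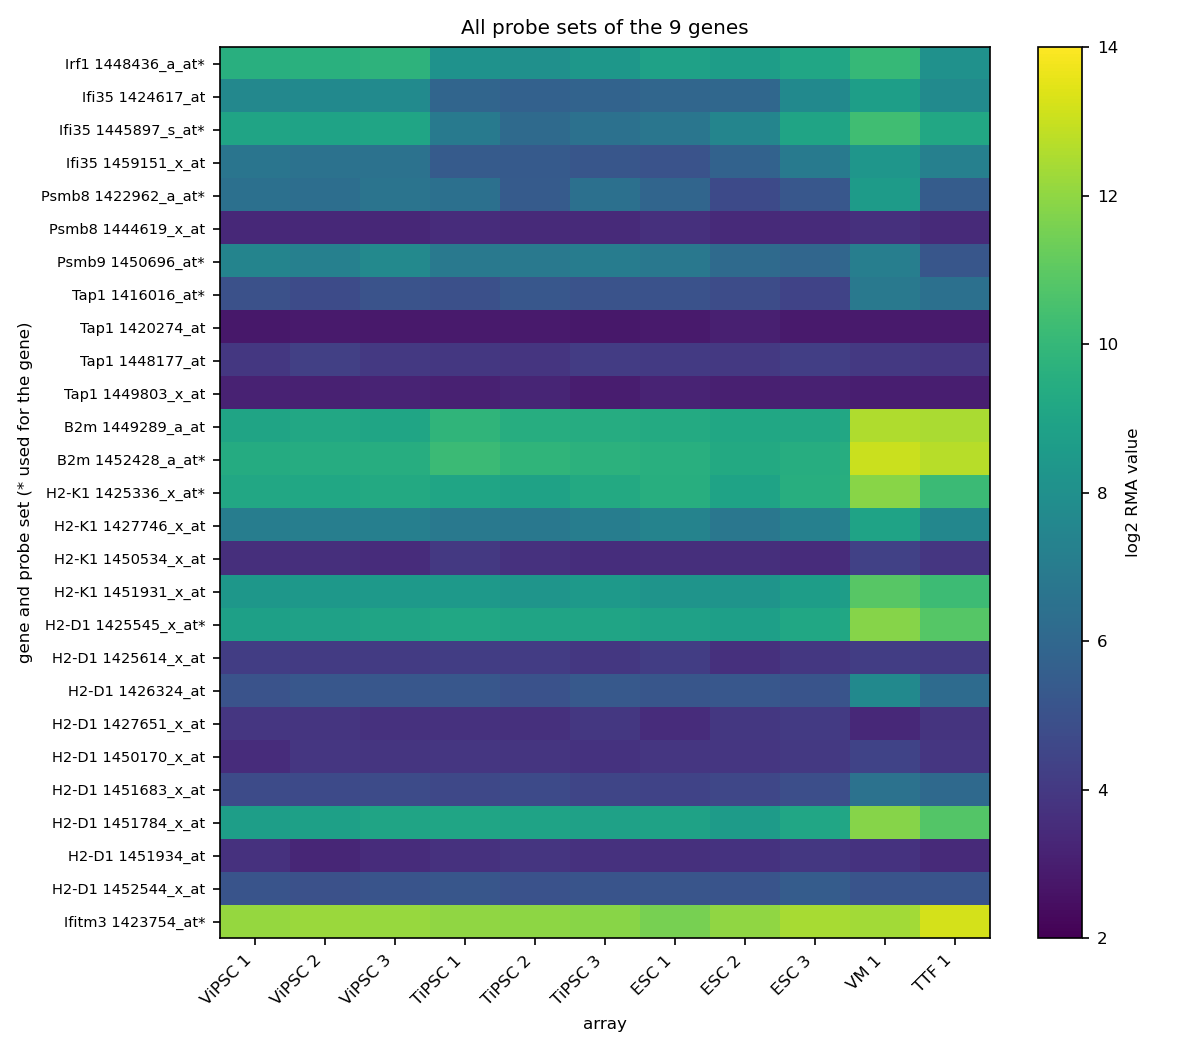
Log2 RMA value (colour) of all 27 probe sets of the 9 genes (rows, with an asterisk at the probe set used for its gene) in the 11 arrays (columns). The 3 Ifi35 probe sets are lighter in ViPSC and in ESC 3 than in TiPSC, and the leading B2m, H2-K1 and H2-D1 probe sets are lightest in VM and TTF.

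Ifitm3, a membrane protein that blocks the entry of enveloped viruses, had 12.08, 12.21 and 12.14 in ViPSC, 12.01, 11.95 and 11.88 in TiPSC, and 11.54, 11.99 and 12.42 in ESC. VM had 12.31 and TTF 13.21. ViPSC lay above TiPSC in every array, by 0.20 ± 0.18, and the ESC arrays spread across both groups. No difference passed (limma adjusted p of 0.606 or more). Ifitm3 was the sole member with its highest value in TTF.

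Between TiPSC and ESC, 0 of the 9 genes passed limma's test, where 0.632% of all genes did, 0.291% higher and 0.341% lower. At an unadjusted p under 0.05 there were 5, namely Irf1, Ifi35, Psmb8, Psmb9 and B2m, among 3284 of 18193 genes. Without ESC 1, these same 5 passed after adjustment, in a fit that called 3038 of all 18193 genes, against 115 with every array. Their adjusted p were then 0.0116 for Irf1, 0.0156 for Ifi35, 0.0292 for Psmb8, 0.00293 for Psmb9 and 0.0287 for B2m. Without ESC 1, Irf1 and Ifi35 fell by 0.72 and 1.72 in TiPSC against ESC, and Psmb8, Psmb9 and B2m rose by 1.14, 0.85 and 0.52. Without TiPSC 3, Irf1 passed alone, at -0.81 (adjusted p = 0.0393).

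The source cells had 1 array each, so their differences carry no test, and fewer cells of a type and less RNA per cell cannot be told apart in such bulk samples. Between VM and TTF, 2 of the 9 genes stood higher in VM by 2 log2 units or more and 0 stood lower, where 4.68% of all genes stood that much higher and 4.62% that much lower. These were Psmb8, 3.09 higher, and Irf1, 2.00 higher. Psmb9 was 1.91 higher in VM, H2-K1 1.70, Ifi35 1.15 and H2-D1 0.97. B2m differed by 0.32 and Tap1 by 0.44, while Ifitm3 was higher in TTF.

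B2m, H2-K1, H2-D1 and Psmb8 were lower by at least 2 in all 3 ViPSC arrays than in VM, which is 4 of the 9 genes, where 6.76% of all genes were. No member was higher by as much, where 6.44% of all genes were. B2m was 12.2-fold lower in ViPSC than in VM, H2-D1 7.60-fold, H2-K1 6.19-fold and Psmb8 4.45-fold. In TiPSC against TTF, 2 of the 9 were lower by as much, B2m by 6.96-fold and Ifi35 by 6.38-fold, where 6.01% of all genes were, and 0 were higher by as much, where 4.51% of all genes were. H2-D1 was 3.47-fold lower, Tap1 2.52-fold and H2-K1 2.11-fold. Psmb9 went the other way, at 1.71 log2 units higher in TiPSC than in TTF.

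Other genes of the pathway were taken from 9 lists with 124 names, of which 109 were measured. They cover interferons and their receptors, signal transducers, regulatory factors, sensors of RNA and DNA, induced effectors, the Ifitm family, peptide loading, other class I chains and proteasome subunits. In ViPSC against TiPSC, 7 of the 109 rose and 2 fell, where 3.2% of all genes rose and 2.43% fell. The median difference was 0.08 over the lists and -0.03 over all genes. None of the 9 genes for interferons and receptors, 10 signal transducers, 9 regulatory factors, 6 Ifitm genes, 9 other class I chains or 5 proteasome genes passed limma's test. At an unadjusted p under 0.05 there were 25 of the 109 pathway genes, beside 3814 of all 18193 genes.

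Of the 40 measured effectors, 5 rose in ViPSC against TiPSC. Xaf1, a proapoptotic interferon-induced protein, had 7.13, 7.13 and 7.19 in ViPSC, 4.99, 5.08 and 4.10 in TiPSC, and 5.75, 7.54 and 7.94 in ESC. It differed by 2.42 ± 0.49 (limma adjusted p = 0.0248), with ESC 2 and ESC 3 above ViPSC. Parp12, an antiviral mono-ADP-ribosyltransferase, had 8.86, 8.77 and 8.96 in ViPSC, 6.65, 7.18 and 6.89 in TiPSC, and 8.04, 7.76 and 8.82 in ESC. Its ViPSC arrays lay 1.96 ± 0.24 above TiPSC (adjusted p = 0.00415). Parp14 and Parp9, of the same enzyme family, rose by 1.25 and 1.23, and the exonuclease Isg20 by 0.80. Parp14 had 4.065, 4.31 and 4.18 in TiPSC, below the array medians, and Isg20 had 5.41, 4.82 and 4.65 there.

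Of 13 measured sensors and their regulators, 2 rose and 1 fell. Zbp1, a sensor of Z-form nucleic acids, had 7.53, 7.34 and 7.53 in ViPSC, 5.52, 5.90 and 5.65 in TiPSC, and 5.84, 6.48 and 7.13 in ESC, against 5.00 in VM and 4.46 in TTF. It was 1.78 ± 0.27 higher in ViPSC than in TiPSC (limma adjusted p = 0.00863) and lay above both source arrays in every stem cell array. Trim25, the ubiquitin ligase that activates RIG-I, rose by 0.80 (adjusted p = 0.00329). The RNA-editing enzyme Adar fell by 0.47 (adjusted p = 0.0372). Of 8 peptide loading genes, Calr, a chaperone of the loading complex, fell by 0.56 (adjusted p = 0.0248).

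Parp12 and Zbp1 passed in all 19 alternatives, while the others did not. Xaf1 was lost without any 1 TiPSC or ViPSC array (adjusted p 0.0551 to 0.0993). Parp14 was lost without TiPSC 1, ViPSC 1 or ViPSC 3 (adjusted p 0.0671 to 0.0725) and Parp9 without TiPSC 1, TiPSC 2 or any ViPSC array (0.0623 to 0.0990). Isg20 was lost without ESC 2, TiPSC 2, TiPSC 3 or any ViPSC array (0.0658 to 0.174). Calr was lost without TiPSC 1 or any ViPSC array (0.0577 to 0.112), and Adar without ESC 2, TiPSC 1, TiPSC 2 or any ViPSC array (0.0504 to 0.148). With all probe sets of the gene averaged, the Adar difference was -0.04. Xaf1 and Trim25 also lie on chromosome 11. With the chromosome median subtracted, Xaf1 differed by 1.95 and still passed (limma adjusted p = 0.0323). Trim25 then differed by 0.33 and did not pass (adjusted p = 0.0946). Under the same subtraction, Adar on chromosome 3 differed by -0.41 and did not pass (limma adjusted p = 0.0771). Calr on chromosome 8 differed by -0.35 and still passed (limma adjusted p = 0.03735).

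**Figure D5:**
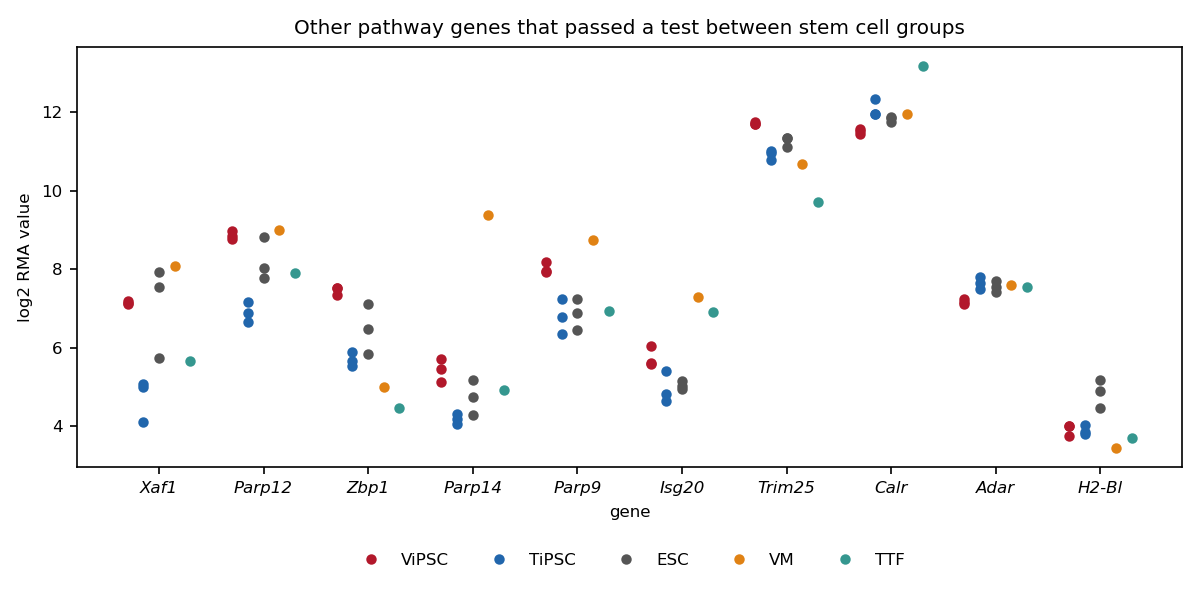
Log2 RMA value (vertical axis) by array for the 10 pathway genes that passed a test between stem cell groups (horizontal axis), coloured by group. Parp12 and Zbp1 in ViPSC, at 8.77 to 8.96 and 7.34 to 7.53, lie above all TiPSC arrays, at 6.65 to 7.18 and 5.52 to 5.90.

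In ViPSC against ESC, Parp9 rose by 1.16 ± 0.24 (limma adjusted p = 0.0474) and Trim25 by 0.46 ± 0.10 (adjusted p = 0.0476), which is 2 of the 109 genes, where 1.45% of all genes rose. H2-Bl, a nonclassical MHC class I gene, fell in ViPSC by 0.93 (adjusted p = 0.0329) and in TiPSC by 0.96 (adjusted p = 0.0492) against ESC, where 0.693% and 0.341% of all genes fell. Its values were 3.74, 4.01 and 4.01 in ViPSC, 4.04, 3.80 and 3.85 in TiPSC, and 4.47, 5.19 and 4.89 in ESC, so that all ViPSC and TiPSC arrays lay below the array medians. These 4 calls stood close to the threshold. Parp9 was lost without ESC 2, TiPSC 1 or any ViPSC array (adjusted p 0.0846 to 0.188), Trim25 without ESC 2, TiPSC 1, TiPSC 2 or any ViPSC array (0.0758 to 0.188). With the chromosome median subtracted, the Trim25 difference from ESC was 0.09 (adjusted p = 0.694). H2-Bl was lost in ViPSC without ESC 2, TiPSC 1, TiPSC 2 or any ViPSC array (0.0569 to 0.143) and in TiPSC without any 1 array but ESC 1 (0.0761 to 0.148).

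Markers of other immune and vascular cells were read on the same arrays. Of 10 blood and macrophage markers, Csf1r and Cd68 rose in ViPSC against TiPSC by 1.54 and 1.37, and 0 fell. Of all genes, 3.2% rose and 2.43% fell in that comparison. The median difference of the 10 was -0.07, with Laptm5 at -0.53 and Lyz2 at -0.38, neither past the threshold, while Ptprc, which marks all white blood cells, was at 3.63 to 3.82 in ViPSC, 3.45 to 3.76 in TiPSC and 3.44 to 3.65 in ESC. Summed over the 10 genes, the log2 levels were 54.8 to 56.3 in ViPSC, 53.0 to 53.8 in TiPSC and 53.5 to 54.0 in ESC. Of 8 endothelial markers, Pecam1 rose by 1.33 against TiPSC and 0 fell, beside those same shares of all genes. Cdh5 was at 3.78 to 3.86 in ViPSC, 3.69 to 3.81 in TiPSC and 3.58 to 3.85 in ESC. The log2 levels of the 8 endothelial markers summed to 44.8 to 45.2 in ViPSC, 41.7 to 42.1 in TiPSC and 42.7 to 44.3 in ESC. Of 6 markers of MHC class II and its regulators, 1 rose in ViPSC and 0 fell, against TiPSC and also against ESC. Of all genes, 3.2% and 1.45% rose in these comparisons, and 2.43% and 0.693% fell. The gene was H2-Eb1, which lies among the neighbours of Psmb8, at 0.55 against TiPSC and 1.05 against ESC. The median difference of the 6 was 0.09 in both comparisons, with H2-Ab1 at -0.08 and -0.51, neither past the threshold. Ciita, the master activator of class II, was near 4 in every array. The part of these markers in the members' values was not tested.

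Among the pathway genes, 22 of 109 exceeded their TTF value by 2 log2 units or more in VM, and 3 fell short of it by as much, where 4.68% and 4.62% of all genes did. The effector Rsad2, which makes an antiviral nucleotide, had 12.27 in VM and 5.78 in TTF, and the regulatory factor Irf7 had 7.70 in VM and 4.34 in TTF. The proteasome activator Psme1 had 11.97 in VM and 9.72 in TTF, Irf9 8.25 and 6.72, and the receptor chain Il10rb 10.21 and 8.36. Higher in TTF were Ifi27, an interferon-induced effector named after its values were seen, at 8.16 in VM and 11.18 in TTF, and also Fcgrt, the neonatal Fc receptor, at 7.66 in VM and 9.996 in TTF, the kinase Ikbke at 4.58 and 6.81, Ifitm2 at 10.24 and 12.04, and the disulfide isomerase Pdia3 at 11.38 and 13.02. In ViPSC against VM, 31 of the 109 were lower by at least 2 in all arrays and 3 higher, where 6.76% of all genes were lower and 6.44% higher. In TiPSC against TTF, 14 were lower and 2 higher, where 6.01% of all genes were lower and 4.51% higher.

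Over the 9 stem cell arrays, the gene most like each member among the 2586 genes with a span of at least 1 was Tmem37 for Irf1 (r = 0.986), Glis3 for Ifi35 (0.986), Lrrc45 for Psmb8 (0.953) and Eno3 for Psmb9 (0.965). It was Nudt14 for Tap1 (0.918), Jag1 for B2m (0.983), Steap1 for H2-K1 (0.848), Cavin2 for H2-D1 (0.858) and Ehbp1 for Ifitm3 (0.960). Over all 11 arrays, where the source cells stand far from the stem cells, it was Septin4 for Irf1 (0.970), Sar1b for Ifi35 (0.971), Uaca for Psmb8 (0.973) and Snai3 for Psmb9 (0.963). It was Ip6k2 for Tap1 (0.984), Cav1 for B2m (0.996), Clasp1 for H2-K1 (0.984), Fas for H2-D1 (0.996) and Slc7a2 for Ifitm3 (0.980). These are descriptions over arrays that fall into groups. Among the members, B2m and H2-D1 were at 0.978 and Tap1 and B2m at 0.958 over the 11 arrays, whereas over the stem cells alone they were at 0.687 and 0.400, and Irf1 and B2m were at -0.744.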

How the data were processed

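The authors deposited log2 expression values per probe set, made by RMA per the submitters' processing notes, which give no version. RMA corrects background, normalizes between arrays and summarizes probes. The annotation and software used are not given in the sources used here, nor whether all 11 arrays were normalized together. No detection calls were used. No build is named for the arrays, so gene order and chromosomes came from a RefSeq table matched by Entrez identifier, and promoter windows from RefSeq for GRCm38.p6.

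Of 45101 probe sets, 64 controls, 932 with several symbols and 9160 with none were left out. Each of 18193 genes was given by its single-symbol probe set with the highest mean over 11 arrays. Where a second probe set is given, its p was adjusted over 45037 probe sets. ViPSC, TiPSC and ESC were compared with limma 3.58.1 in R 4.3.3 (lmFit, eBayes, two-sided), with 1 mean per group and a spread shared by 9 arrays. Adjusted p-values are Benjamini-Hochberg over all genes, and a gene passed under 0.05. Errors of group differences are SE. The fit was tested on simulated data. Source cells were counted at 2 log2 units in every array. Expressed genes had a mean of at least 7.

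The members and the gene lists were chosen with earlier results of these data known. All members are named, as are pathway genes that passed (at most 10 per comparison), the gene of each list with the largest VM minus TTF difference, the gene most like each member, and neighbours that passed. Of the marker genes, Csf1r, Cd68, Pecam1, Laptm5, Lyz2, H2-Eb1, H2-Ab1, Cdh5, Ptprc and Ciita were named after their values were seen. The number of arrays limits precision.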

Additional observations from a re-analysis of the deposited data

How the results depend on the processing

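The counts moved by over 1.5 times under several alternatives, given here in the order ViPSC minus TiPSC, ViPSC minus ESC, then TiPSC minus ESC. The counts above were 1024, 390 and 115 over all genes, 2, 2 and 0 over the members, and 9, 3 and 1 over the pathway lists, and the probe set fit called 3, 2 and 0 member probe sets. With array weights, all genes gave 3613, 3453 and 2913, members 4, 4 and 4, pathway genes 26, 30 and 15, and member probe sets 7, 4 and 2. In a fit of only the 6 arrays compared, all genes gave 2621, 73 and 1, members 4 and 0 in the comparisons with ViPSC, pathway genes 20, 0 and 0, and member probe sets 7 and 0 in those same comparisons. The replicate numbers did not pair the samples, since 1 of 9 same-numbered pairs had a correlation of deviations over 0.1 (range -0.125 to 0.118). With the replicate block, all genes gave 623, 103 and 9, members and member probe sets 1 each for ViPSC against ESC, and pathway genes 1 and 0 in the comparisons with ESC. With the chromosome median subtracted, members and member probe sets gave 1 each for ViPSC against ESC, and member probe sets 5 for ViPSC against TiPSC. With every probe set tested, TiPSC against ESC gave 64 over all genes and 0 pathway genes, and ViPSC against ESC gave 1 pathway gene. With the mean of all probe sets, TiPSC against ESC gave 65 over all genes and 0 pathway genes. With arrays centred on their median, or quantile-normalized over the 9 arrays, TiPSC against ESC gave 1 member and 0 pathway genes and ViPSC against ESC 1 pathway gene. Without genes below the median level, TiPSC against ESC gave 1 member, and ViPSC against TiPSC 5 member probe sets. With trend and robust spread, TiPSC against ESC gave 2 pathway genes. The causes of these moves were not tested.

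Leaving out 1 array gave 207 to 1994, 22 to 2519 and 12 to 3038 over all genes, 1 to 4, 0 to 3 and 0 to 5 over the members, 3 to 17, 0 to 16 and 0 to 18 over the pathway lists, and 1 to 7, 0 to 5 and 0 to 5 over member probe sets. Small differences that had not passed changed sign. Tap1, ViPSC against TiPSC, was 0.0007 with the mean of all probe sets. Against ESC with array weights, ViPSC differed by 0.0684 for B2m, 0.1089 for H2-K1 and 0.0484 for H2-D1. Without 1 array, ViPSC minus ESC ran from -0.1009 (without ESC 2) to 0.0362 (without ESC 1) for B2m, from -0.1024 (ESC 2) to 0.0716 (ESC 3) for H2-D1, and from -0.0615 (ESC 1) to 0.3783 (ESC 3) for Ifitm3. TiPSC minus ESC ran from -0.2609 (ESC 1) to 0.1788 (ESC 3) for Ifitm3.

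For the source cells, a threshold of 1 log2 unit gave 5 members between VM and TTF and 6 between TiPSC and TTF. Over all genes it gave 4413 against 1693 for VM and TTF, 5555 against 2402 for ViPSC and VM, and 4807 against 1913 for TiPSC and TTF. With the mean of all probe sets, each of these 3 comparisons gave 1 member. No detection calls were used, so signal over background is unknown for Tap1 and H2-Bl, and for Parp14 and Isg20 in TiPSC. No alternative removed any member, except that the filter on low values left out Tap1.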
